A study of Homo sapiens with 6 samples.

Results

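The genes described here are 10 known targets of the transcription factor p53 that are tied to apoptosis or autophagic death and lie outside the *BCL2* family: *AEN*, *PERP*, *TP53INP1*, *TP53AIP1*, *PHLDA3*, *EI24*, *SIVA1*, *ZMAT3*, *DRAM1* and *TRIAP1*. They were taken by symbol from the 58336 genes of the count table, and each of the 10 matched 1 Ensembl identifier. Positions are those of GRCh38 as the count table gives them. The cells were A2780, an established ovarian cancer line, given either DMSO vehicle or TH588 at 6 µM for 48 h, with 3 libraries per treatment (replicates A, B and C). TH588 inhibits MTH1, a Nudix hydrolase that clears oxidized nucleotides, and also stalls cells in mitosis. No normal cells and no line that lacks p53 entered this comparison, so it shows the response of 1 cancer line to 1 drug dose at 1 time.

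p53 is a DNA-binding protein that accumulates after DNA damage or failed mitosis and switches on genes for cell cycle arrest, repair and death. Besides the *BCL2* family members that open mitochondria, its death-related targets act on other steps: a nuclease that digests nucleic acids, membrane proteins of the cell surface, endoplasmic reticulum and lysosome, a nuclear protein that steers p53 toward its death targets, an inhibitor of the survival kinase AKT, and RNA-binding and mitochondrial proteins. Not all of these favor death, since *TRIAP1* encodes a protein that protects mitochondria. p53 recognizes a pair of similar decamers, usually in a promoter or the first intron of its targets.

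The letters of this decamer pair were read from GRCh38 in the DNA around the start sites, because they are what p53 would contact if it bound there. The search took 2 decamers with no spacer and an intact C and G core in each, within 5 kb of a RefSeq start, and read both strands at once because the consensus is its own reverse complement. Of the 10 genes, 8 had an entry in the RefSeq promoter table (GRCh38.p14) and were searched. *PHLDA3* and *TP53INP1* had none. The 5 sites shown here are the best site of *ZMAT3*, *PERP*, *AEN*, *DRAM1* and *EI24*, printed on the strand of the gene, with the 20-base site in capitals and 5 flanking bases on each side.
ZMAT3: tcataAAACAAGTCCAGACATGCCTaggca
PERP: atcacAGGCAAGCTCCAGCTTGTTCaaggg
AEN: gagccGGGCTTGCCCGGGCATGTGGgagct
DRAM1: tagatAGGCATGCACAACCATGCCCagcta
EI24: agggaGCACATGAGCAAGCAAGTTCaagat

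The *ZMAT3* site (chr3:179070188-179070207, minus strand) lay in an intron and had 0 mismatches to the consensus. Among 11124 tested genes with a promoter entry, 0.171% had such a site in the same window. The *PERP* site (chr6:138104070-138104089, minus strand) was also intronic and had 1 mismatch, at a center 3340 bases after the start. A site with at most 1 mismatch was found at 1.31% of the genes. The *AEN* site (chr15:88621306-88621325, plus strand) had 2 mismatches and was centered 24 bases before the RefSeq start, outside the gene in GENCODE but inside the first exon of the count table, which begins at 88621296. The *DRAM1* site (chr12:101880194-101880213, plus strand) had 2 mismatches and lay in an intron. With up to 2 mismatches the share of genes was 9.09%. *EI24* (chr11:125566248-125566267, plus strand), *TRIAP1* and *TP53AIP1* had sites with 3 mismatches at best, which 46.3% of genes matched or bettered. *SIVA1* had 5 mismatches at best. A match is a likeness of letters and not a measured p53 site.

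Total counts ranged from 77634048 to 99074175 in 5 libraries, and TH588 replicate A stood apart with 28537837. Small nucleolar and Cajal body RNAs made up 23.3% of its counts and 8.33% to 14.5% of those of the others. Of 11 epithelial and ovarian markers only *EPCAM*, *KRT18* and *VIM* were abundant enough to test, and *CDH1*, *KRT7*, *KRT19* and *PAX8* had at most 2 counts in any library. The summed level of the 11 markers was 3343 to 3749 CPM (counts scaled to a common TMM library size) with DMSO and 3340 to 4060 CPM with TH588. Nearly all of that sum was *VIM*, a mesenchymal gene, at a mean of 3586 CPM with DMSO and 3796 CPM with TH588. Among 9 markers of immune, endothelial and fibroblast cells, *CD3E* was at 0 and *PECAM1* and *CD68* had at most 3 counts in any library. The summed level of those 9 was 12.5 to 14.2 CPM with DMSO and 14.3 to 15.5 CPM with TH588. Within these lists *EPCAM*, *KRT18* and *COL1A2* rose with log2 fold changes of 2.88, 0.88 and 1.37. The part of these markers in the results was not tested. With the small nucleolar and Cajal body RNA genes removed, the calls of the 9 genes tested here were the same.

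The comparison asked how the RNA of these genes differed after TH588. Of the 10, 6 rose, 1 fell, 2 did not pass the test and 1 was too scarce to test. *TP53INP1*, *PHLDA3*, *ZMAT3*, *DRAM1*, *TRIAP1* and *AEN* rose, from 10.2-fold for *TP53INP1* to 1.79-fold for *AEN*. *SIVA1* fell to 0.591 of its DMSO level. *EI24* and *PERP* had folds of 0.947 and 1.11. The calls are those of edgeR's quasi-likelihood test, with Benjamini-Hochberg adjustment over 15844 genes and a threshold of 0.05. Values of single libraries are given in the order A, B, C. Over all those genes 49.6% passed the test, 24.2% as higher and 25.3% as lower, and the groups did not overlap, with TH588 higher, at 28.7% of them and, with TH588 lower, at 29% of them. The median log2 fold change was 0.99 over the 9 tested genes and 0.02 over all genes. In bulk RNA, more RNA in each cell and a different mix of cells cannot be told apart.

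**Figure D1:**
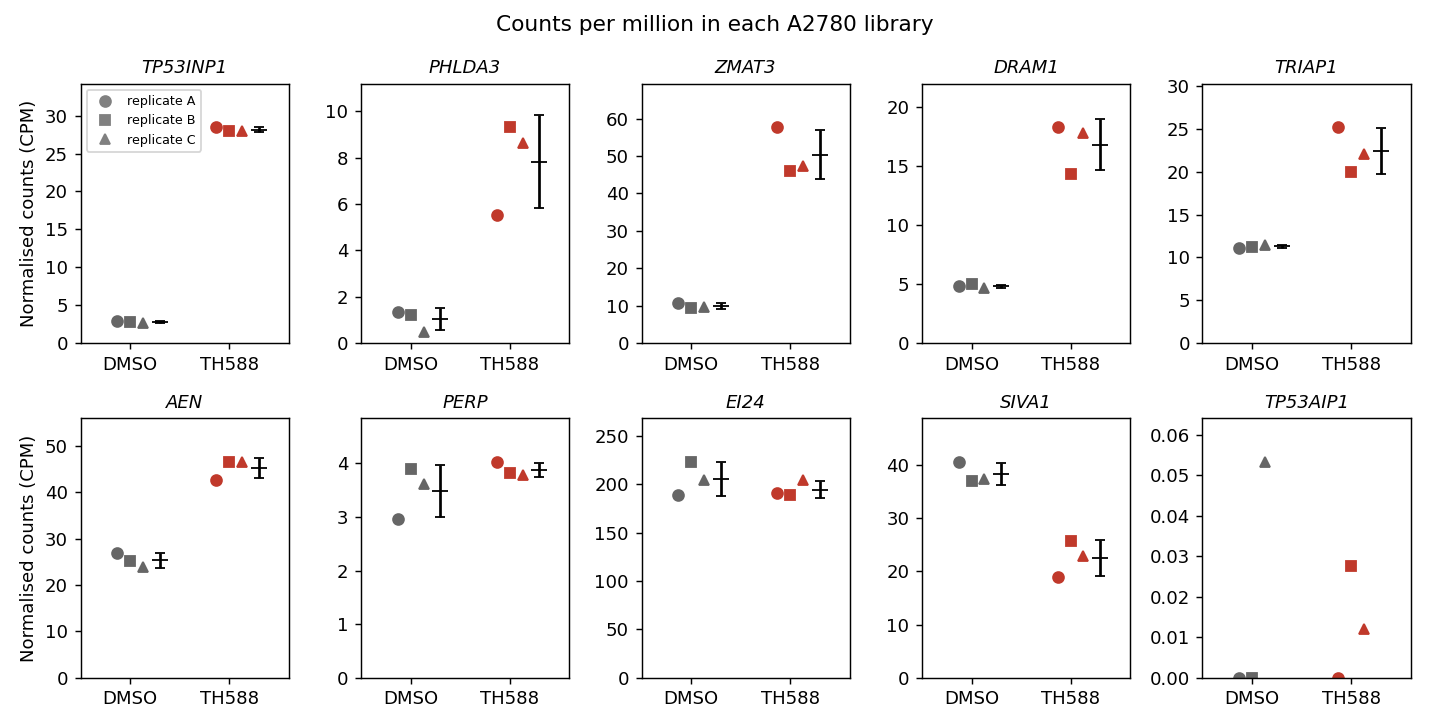
CPM on a linear axis in each library, by gene; circles, squares and triangles are replicates A, B and C, and black bars are the mean ± SD (n = 3), not drawn for *TP53AIP1*. For the 6 genes from *TP53INP1* to *AEN* each TH588 library lies above each DMSO library, for *SIVA1* each lies below, and for *PERP* and *EI24* the groups overlap.

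*TP53INP1* (ENSG00000164938, chromosome 8, 94925972 to 94949411) encodes a stress-induced nuclear protein that works with kinases such as HIPK2 on p53 itself and also binds LC3 on autophagosomes. Its level was 2.85, 2.78 and 2.63 CPM in the vehicle libraries, and 28.54, 28.04 and 27.94 CPM in the TH588 replicates. The 3 libraries of each treatment thus lay close together and the groups were far apart. The mean went from 2.75 ± 0.113 to 28.2 ± 0.324 CPM (SD, n = 3 per treatment), or 3.36 ± 0.11 as a log2 fold change (SE; adjusted p = 1.98e-09, edgeR's quasi-likelihood test). It ranked 88 of 15844 genes by fold change. Among the 9 tested genes it had the largest rise.

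The gene through which *TP53INP1* is known to act on mitochondria is *TP53AIP1* (ENSG00000120471, chromosome 11, 128934731 to 128943399), whose product is a mitochondrial protein that promotes release of cytochrome c. It had 0, 0 and 5 counts in the vehicle libraries and 0, 3 and 1 counts in the TH588 replicates. It did not pass the filter on low counts, and no fold change is given. A count of 0 allows up to 3 counts, which is 0.112 CPM in TH588 replicate A and 0.0276 to 0.0365 CPM in the other libraries. A fall or a small rise of *TP53AIP1* was therefore not detectable at this depth.

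*PHLDA3* (ENSG00000174307, chromosome 1, 201464383 to 201469237) encodes a small pleckstrin homology protein that competes with AKT for membrane lipids. It was at 1.35, 1.22 and 0.481 CPM in the vehicle libraries and at 5.53, 9.33 and 8.63 CPM with TH588. DMSO replicate C was the lowest library and TH588 replicate A the lowest of its group, yet the groups did not overlap. The mean went up from 1.02 ± 0.470 to 7.83 ± 2.02 CPM (SD, n = 3 per treatment), or 2.97 ± 0.31 as a log2 fold change (SE; adjusted p = 8.94e-06, edgeR's quasi-likelihood test). This was the widest error of the 9, with a 95% interval of 4.90-fold to 12.5-fold. The value was 2.64 without DMSO replicate C and 3.16 without TH588 replicate A. Exons of ENSG00000224818, drawn on the same strand and with 0 counts in each library, cover 19.1% of its exon bases, and how reads there were assigned is not stated.

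*ZMAT3* (ENSG00000172667, chromosome 3, 179017223 to 179072279), a zinc finger protein that binds RNA and affects splicing and transcript stability, was at 10.8, 9.40 and 9.60 CPM in the vehicle libraries. It was at 57.8, 45.9 and 47.4 CPM with TH588, with replicate A highest. The mean rose from 9.92 ± 0.732 to 50.4 ± 6.47 CPM (SD, n = 3 per treatment), or 2.34 ± 0.11 as a log2 fold change (SE; adjusted p = 2.61e-08, edgeR's quasi-likelihood test). This is the gene with the intronic decamer pair of 0 mismatches shown above.

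*DRAM1* (ENSG00000136048, chromosome 12, 101877351 to 102012130) encodes a lysosomal membrane protein required for autophagy induced by p53. Its level was 4.78, 4.96 and 4.66 CPM in the vehicle libraries and 18.3, 14.3 and 17.8 CPM with TH588. The lowest TH588 library, replicate B, was well above each DMSO library. The mean rose from 4.80 ± 0.151 to 16.8 ± 2.16 CPM (SD, n = 3 per treatment), and the log2 fold change was 1.80 ± 0.13 (SE; adjusted p = 4.02e-07, edgeR's quasi-likelihood test).

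*TRIAP1* (ENSG00000170855, chromosome 12, 120443961 to 120446412) encodes a small protein of the mitochondrial intermembrane space, which carries phospholipid together with PRELI proteins and restrains apoptosis. It was at 11.1, 11.2 and 11.5 CPM in the vehicle libraries and at 25.26, 20 and 22.09 CPM with TH588. The survival-linked gene of the set thus rose as well, from 11.3 ± 0.163 to 22.4 ± 2.65 CPM (SD, n = 3 per treatment), with a log2 fold change of 0.99 ± 0.11 (SE; adjusted p = 1.37e-05, edgeR's quasi-likelihood test). Of its known partners of the PRELI family, *PRELID1* fell from 96.7 ± 3.74 to 56.7 ± 10.1 CPM (SD, n = 3 per treatment; log2 fold change -0.77, adjusted p = 0.000129 from edgeR's test) and *PRELID3A* fell by 0.66 on the log2 scale (adjusted p = 0.000936 from the same test). *PRELID3B* was at -0.22 (adjusted p = 0.214 from that test), and without TH588 replicate A, the shallow library, it was at -0.43 (adjusted p = 0.000498) and passed.

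*AEN* (ENSG00000181026, chromosome 15, 88621296 to 88632282) encodes the apoptosis enhancing nuclease, an exonuclease that digests DNA and RNA. Its level was 27.0, 25.2 and 23.8 CPM in the vehicle libraries and 42.7, 46.6 and 46.4 CPM with TH588. The groups were apart, although the rise was the smallest of the 6. The mean went from 25.3 ± 1.61 to 45.2 ± 2.21 CPM (SD, n = 3 per treatment), or 0.84 ± 0.09 as a log2 fold change (SE; adjusted p = 7.17e-06, edgeR's quasi-likelihood test). Of all 15844 genes, *AEN* ranked 2354 and *TRIAP1* ranked 1884.

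*PERP* (ENSG00000112378, chromosome 6, 138088505 to 138107511) encodes a tetraspan protein of the plasma membrane that is a death effector of p53 and a part of desmosomes. It was at 2.96, 3.89 and 3.61 CPM in the vehicle libraries and at 4.04, 3.82 and 3.79 CPM with TH588. DMSO replicate A was the lowest library, and the other 5 lay together. The log2 fold change of 0.15 ± 0.15 (SE; adjusted p = 0.433, edgeR's quasi-likelihood test) did not pass the threshold. The 95% interval of the fold, 0.885 to 1.39, reaches neither the rise of *AEN* nor that of *TRIAP1*, so a change of that size would lie outside it. *PERP* is the gene with the intronic decamer pair with 1 mismatch.

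*EI24* (ENSG00000149547, chromosome 11, 125569216 to 125584687), a membrane protein of the endoplasmic reticulum with a role in autophagy, was the most abundant of the 10. It was at 189, 224 and 204 CPM in the vehicle libraries and at 191, 189 and 204 CPM with TH588. The groups overlapped throughout. The log2 fold change was -0.08 ± 0.08 (SE; adjusted p = 0.463, edgeR's quasi-likelihood test), with a 95% interval of the fold from 0.834 to 1.07.

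*SIVA1* (ENSG00000184990, chromosome 14, 104753100 to 104768494) encodes an adaptor that binds the receptor CD27 and promotes apoptosis, and it is known as a target of E2F1 as well as of p53. It was at 40.7, 36.9 and 37.4 CPM in the vehicle libraries and at 18.9, 25.6 and 23.0 CPM with TH588. Each TH588 library lay below each DMSO library. The mean fell from 38.3 ± 2.04 to 22.5 ± 3.38 CPM (SD, n = 3 per treatment), with a log2 fold change of -0.76 ± 0.11 (SE; adjusted p = 0.000105, edgeR's quasi-likelihood test). Without TH588 replicate A it was -0.65. *CD27*, its receptor partner, had 1 to 8 counts in each library and was not tested.

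**Figure D2:**
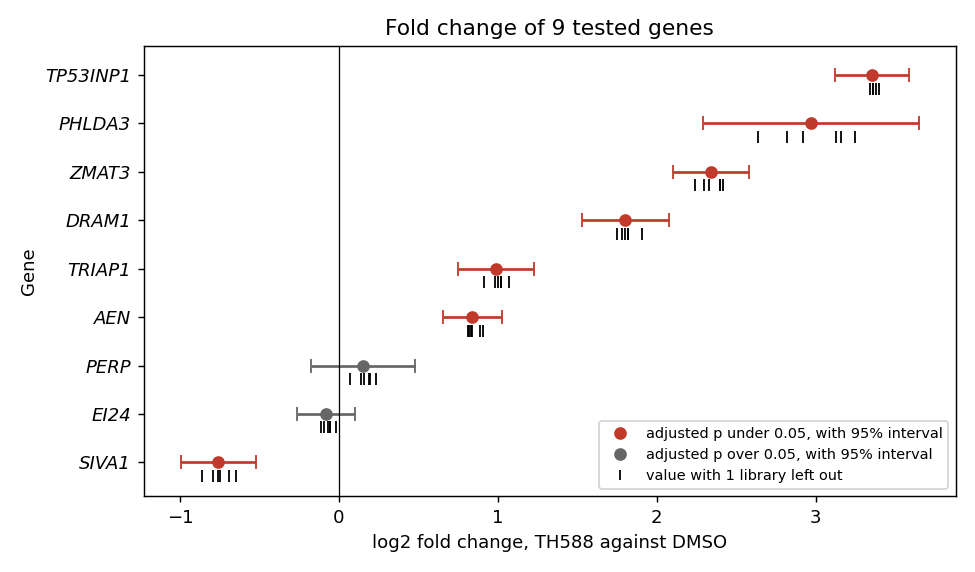
Log2 fold change of TH588 against DMSO for the 9 tested genes, with 95% intervals from edgeR's fit; black ticks under each point are the values with 1 library left out. The intervals of *TP53INP1*, *PHLDA3* and *ZMAT3* lie above 2, those of *PERP* and *EI24* include 0, and *SIVA1* lies below 0.

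The 9 responses were thus spread over a range from -0.76 to 3.36 on the log2 scale. In order of fold change, the 95% intervals of neighbors overlapped for *TP53INP1* and *PHLDA3*, for *PHLDA3* and *ZMAT3*, for *TRIAP1* and *AEN*, and for *PERP* and *EI24*. They did not overlap for *ZMAT3* and *DRAM1* (2.10 to 2.58 against 1.53 to 2.08), for *DRAM1* and *TRIAP1* (the latter 0.75 to 1.23), for *AEN* and *PERP* (0.65 to 1.03 against -0.18 to 0.48), or for *EI24* and *SIVA1* (-0.26 to 0.10 against -0.996 to -0.52). TH588 replicate A, the shallow library, was the highest of its group for *ZMAT3*, *DRAM1*, *TRIAP1*, *PERP* and *TP53INP1* and the lowest for *PHLDA3*, *AEN* and *SIVA1*. Without it the log2 fold changes were 3.36 for *TP53INP1*, 2.24 for *ZMAT3*, 1.75 for *DRAM1*, 0.91 for *TRIAP1*, 0.89 for *AEN*, 0.14 for *PERP* and -0.05 for *EI24*, and the calls of the 9 genes were the same.

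**Figure D3:**
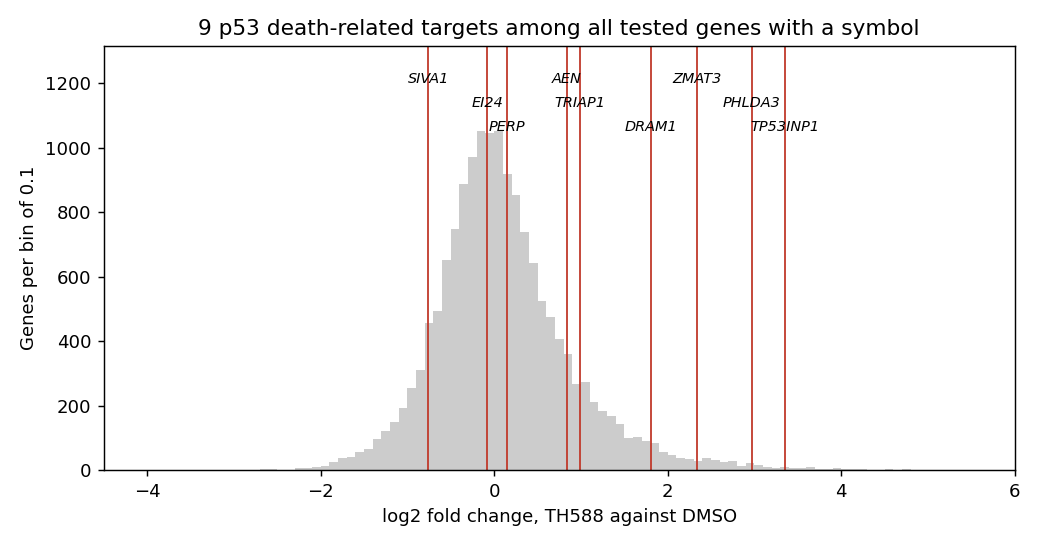
Histogram of log2 fold changes of all tested genes that have a symbol, in bins of 0.1, with a red line for each of the 9 tested genes. *TP53INP1*, *PHLDA3*, *ZMAT3* and *DRAM1* lie in the right tail, *PERP* and *EI24* near the center and *SIVA1* to the left of it.

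Levels of different genes were compared per exon length, as CPM per kb. *TP53AIP1*, at or near 0 counts, was last under both treatments and is left out of the orders that follow. With DMSO the order was *EI24* (57.8), *SIVA1* (8.03), *TRIAP1* (7.82), *AEN* (4.21), *DRAM1* (1.15), *ZMAT3* (1.03), *PERP* (0.812), *TP53INP1* (0.484) and *PHLDA3* (0.325). The ranges over libraries overlapped for *SIVA1* (7.73 to 8.52) and *TRIAP1* (7.72 to 7.95) and for *DRAM1* (1.11 to 1.19) and *ZMAT3* (0.975 to 1.12), but not for other neighbors. With TH588 the order was *EI24* (54.7), *TRIAP1* (15.6), *AEN* (7.52), *ZMAT3* (5.22), *TP53INP1* (4.96), *SIVA1* (4.72), *DRAM1* (4.02), *PHLDA3* (2.49) and *PERP* (0.905). From *ZMAT3* to *DRAM1* the ranges of neighbors overlapped. *PERP*, which was above *TP53INP1* and *PHLDA3* with DMSO, was below both with TH588. *EI24* stayed the most abundant by a wide margin, at a lowest level of 53 CPM per kb in any library. The exon length counts all exons of a gene's transcripts, so these levels are approximate.

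**Figure D4:**
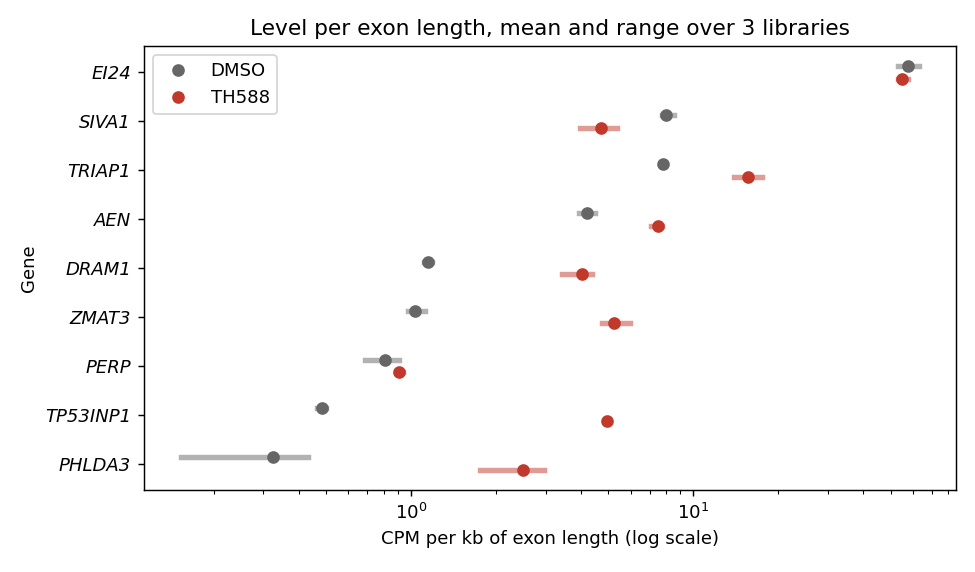
Mean level (dots) and range over 3 libraries (bars) in CPM per kb of exon length, on a log axis, with DMSO in grey and TH588 in red. *TP53INP1* and *PHLDA3*, the lowest of the 9 tested genes with DMSO at 0.484 and 0.325, lie above *PERP* with TH588.

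Relatives of the 10 genes in sequence or fold were described next. Of 17 relatives, 15 could be tested, with a median log2 fold change of 0.69. Of these, 9 were higher and 4 lower, against 24.2% and 25.3% of all genes. *TP53INP2*, the closest relative of *TP53INP1* and also an autophagy protein, rose from 0.741 ± 0.200 to 2.02 ± 0.0811 CPM (SD, n = 3 per treatment; log2 fold change 1.45, adjusted p = 0.000354 from edgeR's test). The zinc finger genes *ZMAT1*, *ZMAT2* and *ZMAT5* rose with log2 fold changes of 0.67, 0.46 and 0.69, each with an interval below that of *ZMAT3*. *DRAM2* and *TMEM150A*, relatives of *DRAM1*, rose with 0.35 and 0.71. The exonucleases related to *AEN* moved both ways: *ISG20* rose with a log2 fold change of 1.70, at a low level of 0.904 ± 0.218 CPM with TH588 (SD, n = 3), while *ISG20L2* and *REXO4*, which act in ribosome production, fell with -0.83 and -0.48. So did the relatives of *PERP* in the PMP22 family, of which *EMP1* and *EMP3* rose with 0.99 and 0.94 and *PMP22* and *EMP2* fell with -1.10 and -0.92. *PHLDA2* (1.16, adjusted p = 0.273) and *TMEM150B* (0.80, adjusted p = 0.505) did not pass edgeR's test. Without DMSO replicate A, which held 16 of its counts, *TMEM150B* was at 2.87 and passed (adjusted p = 0.0449 from edgeR's test). *PHLDA1* and *ZMAT4* were too scarce to test.

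**Figure D5:**
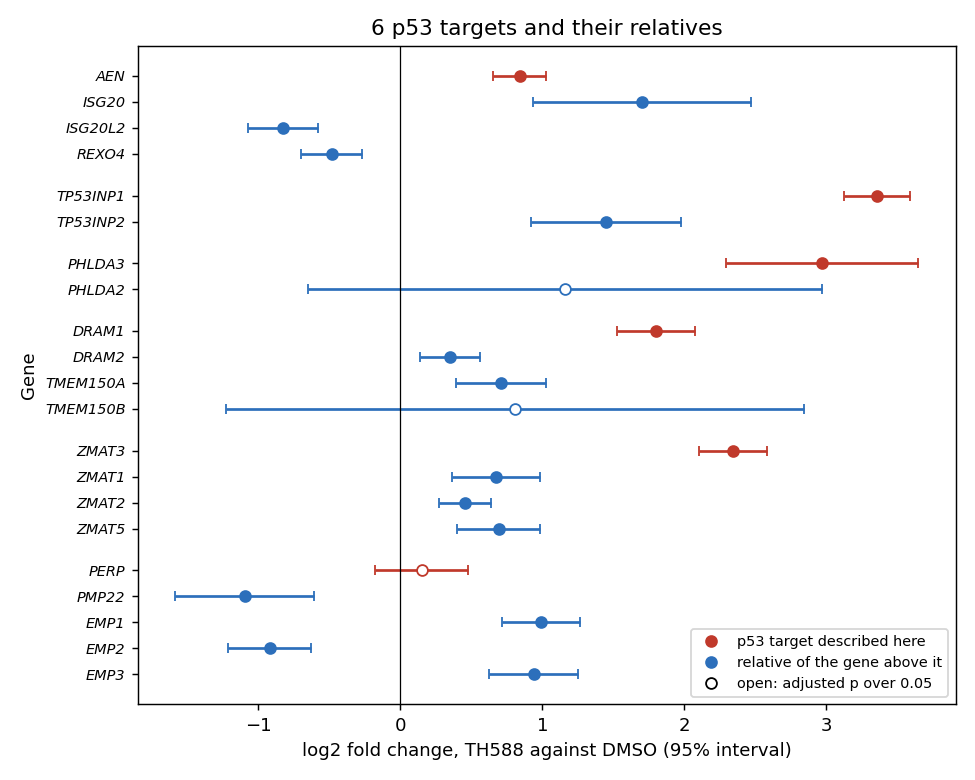
Log2 fold change with 95% interval for 6 of the p53 targets (red) and their tested relatives (blue) listed under each; open circles did not pass the threshold. *ZMAT1*, *ZMAT2* and *ZMAT5* lie below *ZMAT3*, and the relatives of *AEN* and of *PERP* lie on both sides of 0.

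Genes that act with the 10 products were called about as often as genes in general. Of 14 such partners 12 could be tested, of which 4 were higher and 3 lower, against 24.2% and 25.3% of all genes, with a median of -0.08. *MDM2*, the ubiquitin ligase of p53 and its feedback target, rose with a log2 fold change of 2.00. *MDM4*, the other inhibitor of p53 in that family, rose with 0.23 (adjusted p = 0.0251 from edgeR's test), a call lost without DMSO replicate A (adjusted p = 0.0686) or DMSO replicate B (adjusted p = 0.106). *PRKCD*, a kinase that acts with *TP53INP1*, rose with 0.49 (adjusted p = 0.000728 from edgeR's test), and the change of *HIPK2* was -0.10 (adjusted p = 0.453). *AKT1*, whose product *PHLDA3* opposes, fell from 154 ± 17.4 to 94.2 ± 13.9 CPM (SD, n = 3 per treatment; log2 fold change -0.71, adjusted p = 0.000248 from edgeR's test). *AKT2*, also in this list, was at a mean of 156.5 CPM with DMSO and 156.2 CPM with TH588. Its log2 fold change was -0.003 (adjusted p = 0.981 from edgeR's test), so not all AKT RNA fell. *MAP1LC3B*, which encodes an LC3 protein, rose with 0.64. *CD44*, a known splicing target of *ZMAT3*, had 0 counts in 5 libraries and 1 in the other. Of 12 desmosome genes, the structures that hold *PERP*, only 6 could be tested. Of these, 2 were higher and 1 lower, against 24.2% and 25.3% of all genes. *JUP* and *PKP3* rose (1.18 and 1.08), *PKP4* fell (-0.66), and *DSP*, the core desmosomal linker, had at most 5 counts in any library.

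Other p53 targets from 2 lists gave a frame for the 10. Of 21 tested targets in arrest, repair and feedback, all 21 rose, against 24.2% of all genes, at a median of 2.00. *GDF15*, *CDKN1A* and *BTG2* rose most (5.85, 4.71 and 3.40). Of 8 tested targets listed under the *BCL2* family or other apoptosis genes, 7 rose and 1 fell, against 24.2% and 25.3% of all genes. Their median was 1.63. Among those with an average log2 CPM of at least 2, *TP53I3* (2.79), *FAS* (2.35) and *BAX* (2.06) rose most, and *BID* fell (-0.54). *BBC3*, below that level and named after its values were seen, rose by more than *FAS* (2.75). *PMAIP1* of this list and *TP53TG1* of the one before had 0 counts in each library and were not tested. *DRAM1*, *TP53INP1* and *EI24* take part in autophagy. Of 39 autophagy genes, 22 rose and 5 fell, against 24.2% and 25.3% of all genes, with a median of 0.40. The largest rises there above the same level were those of *GABARAPL1*, an LC3 relative on autophagosomes, and of the cargo receptors *OPTN* and *NBR1* (log2 fold changes 3.17, 2.32 and 1.74). *MAP1LC3A*, an LC3 gene below that level and likewise named after its values were seen, rose by more than *NBR1* (1.84). The falls were led by *ATG3*, *ATG16L1* and *ATG4C*, which act in the attachment of LC3 to membranes or its processing (-0.70, -0.45 and -0.29). The call of *ATG4C* was lost with edgeR's test without DMSO replicate A (adjusted p = 0.132), DMSO replicate C (adjusted p = 0.0728), TH588 replicate A (adjusted p = 0.0593) or TH588 replicate B (adjusted p = 0.0795). With the same test it was also lost with library size only (-0.187, adjusted p = 0.256) and with no filter (adjusted p = 0.0564). *MDM2* is counted both as a partner and as a feedback target, and *MAP1LC3B* both as a partner and as an autophagy gene. No test compared these lists with the 10 genes.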

How the data were processed

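The authors aligned reads from an Illumina HiSeq to GRCh38 with TopHat, counted them per gene with featureCounts 1.4.6 and deposited raw counts without normalization. Their libraries were made with a TruSeq kit that, as named, does not mark strand. The methods name UCSC gene models, whereas the table has Ensembl identifiers, of which 57754 of 58336 matched a symbol. Counts were compared with edgeR 4.0.16 in R 4.3.3: TMM scaling, filterByExpr (15844 genes left) and the quasi-likelihood test on 3 libraries per group, with Benjamini-Hochberg adjustment. CPM use TMM library sizes. The SE of a fold change was taken from its F value. The methods call the replicates biological. The scripts were first tested on simulated counts. An exact permutation test of 3 against 3 libraries cannot go below p = 0.1, so calls rest on the model across all genes.

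The 10 genes and all lists were chosen with earlier results of these data known, and 1 partner gene is not reported here. Genes named outside the 10 are any of the relatives, partners and desmosome genes, and, in the other lists, up to 3 of the largest rises and falls that passed the test, had an average log2 CPM of 2 or more and did not overlap between groups. *BBC3*, *MAP1LC3A*, *PMAIP1* and *TP53TG1* are named besides. Alternatives were DESeq2 1.42.0 and its size factors, library size only, limma-voom (limma 3.58.1), other filters, an adjusted p under 0.01, each library left out, the replicate letter as a block, and removal of small nucleolar and Cajal body RNA genes. Sites were read from the GRCh38 genome, and the 10 promoter rows used equalled it. Replicates of a group differed by more than sampling noise (chi-square per degree of freedom 21.1 to 145 in 6 pairs). Floors of 3 counts cover counting error only.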

Additional observations from a re-analysis of the deposited data

How the results depend on the processing

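Across 15 alternatives, 6 of the genes were called higher and 1 lower each time, and 134 of 135 fold changes kept their direction and their side of the threshold. The exception was *EI24*, at 0.0254 with library size only. The median of all genes moved to 0.13 from 0.02 under that scaling and to 0.14 with no filter, and 60.4% of calls were then higher under the former, against 48.9%.

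Other values that changed sign did not pass the threshold in either fit. With library size only *AKT2* was 0.10, *HIPK2* 0.0052, *XIAP* 0.0492 and *DSC2* 0.0583. *AKT2* was 0.000426 with DESeq2's size factors, 0.000495 with DESeq2, 0.0019 with limma-voom, 0.0054 with no filter and 0.018 where each library had to hold 10 counts. With 1 library left out, *AKT2* ranged from -0.0691 to 0.0921 and *DSC2* from -0.159 to 0.163. Among the 46 other named genes, 13 values lost significance, those of *MDM4*, *ATG4C* and *PKP3*. Each of these genes lost it under the threshold of 0.01, where the fit itself was unchanged. *PKP3* (adjusted p = 0.0109 from edgeR's test) lost it there only. Another 2 values gained significance, those of *PRELID3B* without TH588 replicate A and *TMEM150B* without DMSO replicate A.

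The number of genes with a decamer pair was 7 of 8 with up to 3 mismatches, 4 with at most 2, and 2 from 250 bases before to 50 after the start, against 46.3%, 9.09% and 1.51% of genes.

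Libraries with the same replicate letter did not deviate alike, with correlations of deviations of -0.26, -0.35 and 0.01 for A, B and C. With 3 libraries per group these values cannot show whether the letters mark a shared culture or batch. With the replicate block 3492 genes were higher and 3703 lower, against 3839 and 4013, and the 9 genes kept their calls. *MDM4* and *ATG4C* lost theirs under the block (adjusted p = 0.0733 and 0.0617 from edgeR's test). Single outlying libraries were not tested for in groups of 3. Depth limits *TP53AIP1*, for which no fold change is given.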
